A study of Mus musculus with 8 samples.

Results

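The genes described here are 10 enzymes of the pentose phosphate pathway and of NADPH supply, *G6pdx*, *H6pd*, *Pgls*, *Pgd*, *Rpia*, *Rpe*, *Tkt*, *Taldo1*, *Idh1* and *Idh2*, taken from 14066 named genes tested in the liver of *Agpat3* wild-type (WT) and *Agpat3* KO mice. They were found by matching the transcript accession of each probe on the array to a RefSeq gene table, which gave 16 probes for the 10 genes, and all 16 were well above background on all 8 arrays. The mice were 10-week-old C57BL/6 males, 4 with both copies of *Agpat3* intact (WT) and 4 with the gene deleted (KO). The deletion was global, so AGPAT3, the enzyme that puts docosahexaenoic acid into membrane phospholipids, was missing from every tissue and not from hepatocytes alone. Total RNA of each frozen liver was labeled with Cy3 and hybridized to a one-color Agilent array, 1 array per mouse. The 8 arrays shared 1 slide and 1 scan. WT livers occupied row 1 of that slide and KO livers row 2, and slide row therefore cannot be told apart from genotype. Whether the livers of a genotype came from separate litters or cages is not given in the sources used here, and p-values measure the spread between these mice.

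Glucose 6-phosphate enters the pentose phosphate pathway through an oxidative branch, which reduces NADP to NADPH and ends in ribulose 5-phosphate. A reversible non-oxidative branch then turns pentose phosphates into ribose 5-phosphate for nucleotides or back into sugars of glycolysis. NADPH is the reductant of fatty acid and cholesterol synthesis and of glutathione and thioredoxin recycling, and in liver it also comes from malic enzyme, from the NADP-dependent isocitrate dehydrogenases and from folate enzymes. The study asked how liver transcription responds when phospholipids with docosahexaenoic acid are lost, and the comparison below asks which of these enzymes differed in RNA level between the genotypes.

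Values are log2 of the processed fluorescence of a probe minus the 75th percentile of its array, called the log2 signal below. A log2 signal compares mice for 1 probe and not 1 gene with another. Where a gene had more than 1 probe, the brightest stood for it. A call required a change of more than 1.5-fold and an adjusted p below 0.2 in limma. These are the thresholds of the volcano plot of the study, whose legend leaves unsaid whether the p was adjusted. *Agpat3* itself, the check of the labels, had a log2 signal of 5.75 ± 0.11 (SD, n = 4) in WT and -0.38 ± 0.27 in KO (log2 fold change -6.12, adjusted p = 4.46e-07 in limma). In bulk liver RNA, fewer cells of a type and less RNA per cell cannot be told apart.

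*G6pdx*, *Rpia* and *Pgd* were called higher in *Agpat3* KO liver, by 2.08-fold, 1.84-fold and 1.53-fold, and no member was called lower. Of all 14066 named genes, 1.01% were called higher and 0.754% lower, against 3 and 0 of the 10 members. At adjusted p under 0.2 with no minimum fold, *Tkt* was added on the higher side and *H6pd* on the lower side, 4 and 1 of 10 members, where 1.97% and 2.36% of all genes lay. In 5 members (*G6pdx*, *Pgd*, *Rpia*, *Tkt* and *Idh1*) every KO mouse was above every WT mouse, as in 3.84% of all genes, and in *H6pd* every KO mouse was below every WT mouse, as in 5.87% of all genes. The median log2 fold change was 0.20 over the 10 members and -0.03 over all genes. For those 6 separated members the exact permutation test gave p = 0.0286, the smallest that the 70 assignments of 4 and 4 mice allow. Full separation fixes that p, so the test added nothing to the separation. The members were chosen with earlier results of these data known, so their counts beside the shares of all genes are a description and do not test enrichment.

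**Figure D1:**
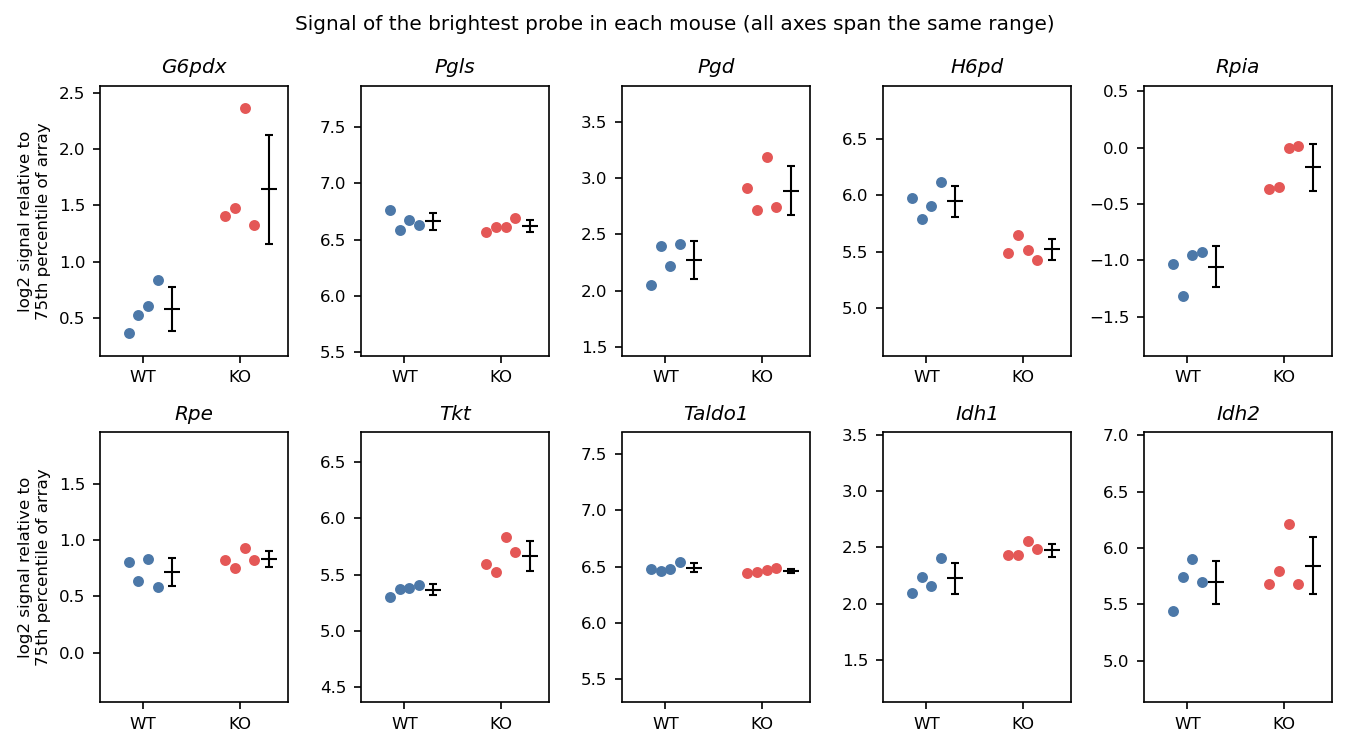
Log2 signal of the brightest probe of each of the 10 genes in each mouse, relative to the 75th percentile of its array, with WT in blue and KO in red. Each dot is 1 mouse, bars are mean ± SD (n = 4), and every panel spans the same range so that the shifts of *G6pdx*, *Rpia* and *Pgd* upward and of *H6pd* downward can be set against the flat *Pgls* and *Taldo1*.

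The 250 bases before the annotated start of transcription are shown for the 3 genes called higher and for *H6pd*, the member with the opposite direction (RefSeq, GRCm38.p6, written 5′ to 3′ on the gene's strand). They lie at chrX:74428881-74429130 (*G6pdx*), chr4:149166706-149166955 (*Pgd*, the upstream one of its annotated starts), chr6:70792176-70792425 (*Rpia*) and chr4:150003237-150003486 (*H6pd*), all on the minus strand. Capitals mark matches on either strand. A GC box is the word GGGCGG. The CCAAT box is spelled by its name, and the core of an antioxidant response element is TGACNNNGC.
G6pdx: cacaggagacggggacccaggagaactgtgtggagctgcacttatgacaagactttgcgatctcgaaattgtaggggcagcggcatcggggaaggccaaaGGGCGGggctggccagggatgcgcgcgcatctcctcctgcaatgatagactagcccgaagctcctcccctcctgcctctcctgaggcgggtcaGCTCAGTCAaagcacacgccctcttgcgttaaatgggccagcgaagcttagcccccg
Pgd: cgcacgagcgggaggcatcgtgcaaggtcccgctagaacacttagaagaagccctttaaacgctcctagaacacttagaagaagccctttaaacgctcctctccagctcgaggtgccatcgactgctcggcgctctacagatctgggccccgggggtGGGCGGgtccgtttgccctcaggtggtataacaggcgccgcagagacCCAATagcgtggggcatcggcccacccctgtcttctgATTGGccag
Rpia: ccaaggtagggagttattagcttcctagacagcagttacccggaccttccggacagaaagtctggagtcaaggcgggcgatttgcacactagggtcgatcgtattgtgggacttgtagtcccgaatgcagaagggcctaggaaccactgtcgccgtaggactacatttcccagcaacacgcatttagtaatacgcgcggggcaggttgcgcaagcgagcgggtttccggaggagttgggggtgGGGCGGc
H6pd: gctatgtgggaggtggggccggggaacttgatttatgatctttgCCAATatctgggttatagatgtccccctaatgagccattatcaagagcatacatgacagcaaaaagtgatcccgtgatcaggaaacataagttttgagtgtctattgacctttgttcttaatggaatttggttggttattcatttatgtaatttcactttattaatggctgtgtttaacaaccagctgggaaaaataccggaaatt
Each of the printed promoters of the 3 genes called higher held 1 GC box, 150 bases before the start in *G6pdx*, 93 in *Pgd* and 7 in *Rpia*. That of *H6pd* held none, nor did the window of the other annotated start of *Pgd*. The GC box was not particular to called genes, since *Pgls*, *Rpe*, *Tkt*, *Taldo1*, *Idh1* and *Idh2*, none of them called, had it too. Over all members, 10 of 12 promoter windows had a GC box, against 32.7% of the 32851 windows of the same length in the RefSeq table. A CCAAT box stood in 5 of 12 member windows, among them 2 matches in *Pgd* and 1 in *H6pd*, against 33.8% of all windows. The antioxidant response core was found in the *G6pdx* window alone of the 12, 57 bases before the start, and in 10.2% of all windows. The sterol regulatory element (TCACNCCAC), found in 1.05% of all windows, and the E-box (CACGTG), found in 6.02%, had no match in the 12 windows. No match in the printed windows overlapped another. These are matches of letters in a short window, and binding was not measured.

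The oxidative branch in the cytosol starts with glucose-6-phosphate dehydrogenase, encoded by the X-linked *G6pdx*, which makes the first NADPH of the pathway and controls its flux. Its log2 signals were 0.36, 0.53, 0.60 and 0.84 in WT and 1.41, 1.48, 2.36 and 1.32 in KO. All KO mice lay above all WT mice, and KO mouse 3 stood apart from the other KO mice. The means were 0.58 ± 0.20 in WT and 1.64 ± 0.48 in KO (SD, n = 4), a log2 fold change of 1.06 (SE 0.23, 95% interval 0.54 to 1.58, adjusted p = 0.108 in limma). Only 0.576% of all genes had a larger log2 fold change. Without KO mouse 3 the log2 fold change was 0.82 and the gene was still called (adjusted p = 0.0544 in limma, range over all alternatives 0.0544 to 0.256). *G6pd2*, an autosomal copy of *G6pdx* with closely related sequence, was not above background in enough mice to be tested, and cross-hybridization between both genes was not tested.

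6-Phosphogluconolactonase (*Pgls*), the next enzyme, hydrolyzes the lactone that *G6pdx* produces. The log2 signal of its brighter probe was 6.77, 6.58, 6.67 and 6.63 in WT and 6.56, 6.61, 6.61 and 6.69 in KO, and the genotypes overlapped. Its log2 fold change was -0.04 (95% interval -0.20 to 0.11, adjusted p = 0.838 in limma), and that of its other probe was -0.03. The interval leaves room for a change of at most 0.20 on the log2 scale in either direction.

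Phosphogluconate dehydrogenase (*Pgd*) makes the second NADPH and releases ribulose 5-phosphate. The log2 signals of *Pgd* were 2.05, 2.40, 2.22 and 2.42 in WT and 2.91, 2.71, 3.19 and 2.74 in KO. The genotypes did not overlap, with the lowest KO mouse above the highest WT mouse, and KO mouse 3 was again the highest. The means were 2.27 ± 0.17 and 2.89 ± 0.22 (SD, n = 4), a log2 fold change of 0.62 (SE 0.13, 95% interval 0.32 to 0.91, adjusted p = 0.104 in limma). This was just over the fold threshold, which is 0.585 on the log2 scale, and the call was lost when arrays were scaled to their median (0.58).

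Hexose-6-phosphate dehydrogenase (*H6pd*) catalyzes the first steps of the same chemistry inside the endoplasmic reticulum, where its NADPH serves 11β-hydroxysteroid dehydrogenase. The *H6pd* probe had log2 signals of 5.97, 5.79, 5.90 and 6.12 in WT and 5.49, 5.65, 5.52 and 5.43 in KO. All KO values were under all WT values, the reverse of *G6pdx*. The means were 5.95 ± 0.14 and 5.52 ± 0.09 (SD, n = 4), a 1.34-fold lower signal in KO (log2 fold change -0.43, SE 0.09, 95% interval -0.63 to -0.22, adjusted p = 0.101 in limma). It therefore passed the p threshold and missed the fold threshold. *Hsd11b1*, the hydroxysteroid dehydrogenase it serves, had a log2 fold change of 0.06 (95% interval -0.11 to 0.22, adjusted p = 0.783 in limma).

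**Figure D2:**
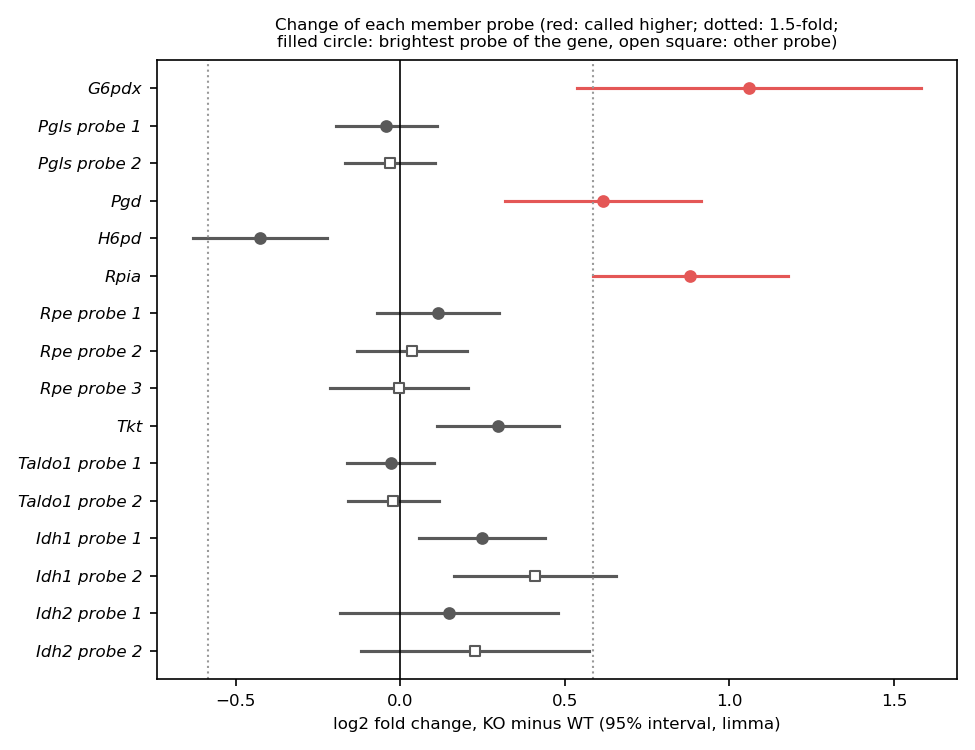
Log2 fold change, KO minus WT, of the 16 probes of the 10 genes, with 95% intervals from limma and dotted lines at a 1.5-fold change in either direction. Red marks the 3 probes called higher, filled circles are the brightest probe of a gene and open squares its other probes, which lie close to it in all 5 genes that have more than 1.

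In the non-oxidative branch, ribose 5-phosphate isomerase (*Rpia*) converts ribulose 5-phosphate into the ribose 5-phosphate of nucleotides. Its log2 signals were -1.03, -1.32, -0.96 and -0.92 in WT and -0.36, -0.35, -0.00 and 0.02 in KO. Each KO mouse was well above each WT mouse, and the gap between the genotypes was wider than the range within KO. The means were -1.06 ± 0.18 and -0.18 ± 0.21 (SD, n = 4), a log2 fold change of 0.88 (SE 0.13, 95% interval 0.58 to 1.18). With adjusted p = 0.0368 in limma, *Rpia* was the 1 member that also passed a threshold of 0.05. It was called under all 17 alternatives with a log2 fold change, from 0.65 with normexp background correction to 0.94, and its adjusted p in limma was at most 0.108.

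Ribulose-phosphate 3-epimerase (*Rpe*) acts on the same substrate as *Rpia* and makes xylulose 5-phosphate. The log2 signals of its brightest probe were 0.81, 0.64, 0.83 and 0.59 in WT and 0.82, 0.75, 0.93 and 0.82 in KO, and overlapped. Its log2 fold change was 0.11 (95% interval -0.07 to 0.30, adjusted p = 0.598 in limma). Its other probes gave 0.04 and -0.00, all 3 for the same transcript.

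Transketolase (*Tkt*) moves 2-carbon units between sugar phosphates and joins the pathway to glycolysis. The *Tkt* signals were 5.30, 5.38, 5.38 and 5.41 in WT and 5.60, 5.53, 5.83 and 5.70 in KO. The WT mice lay close together and all KO mice lay above them, with KO mouse 3 the highest. The log2 fold change was 0.30 (SE 0.08, 95% interval 0.11 to 0.48, adjusted p = 0.182 in limma), or 1.23-fold, under the fold threshold.

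Transaldolase (*Taldo1*) is the partner of transketolase and moves 3-carbon units. *Taldo1* had log2 signals of 6.48, 6.46, 6.48 and 6.54 in WT and 6.44, 6.45, 6.47 and 6.48 in KO, the narrowest spread among the members. Its log2 fold change was -0.03 (95% interval -0.16 to 0.10, adjusted p = 0.867 in limma), and its other probe gave -0.02.

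Isocitrate dehydrogenases that use NADP supply NADPH from citrate carbon, in the cytosol and peroxisomes (*Idh1*) and in mitochondria (*Idh2*). The brighter *Idh1* probe had log2 signals of 2.09, 2.24, 2.16 and 2.41 in WT and 2.43, 2.43, 2.55 and 2.48 in KO. Every KO mouse was above every WT mouse, but WT mouse 4 lay only just under the lowest KO mouse. The log2 fold change was 0.25 (95% interval 0.06 to 0.44, adjusted p = 0.259 in limma), past neither threshold. The second *Idh1* probe, designed to another transcript, gave -1.80, -1.54, -1.67 and -1.32 in WT and -1.18, -1.25, -1.07 and -1.19 in KO. It had the same order of genotypes and a log2 fold change of 0.41 (95% interval 0.16 to 0.66, adjusted p = 0.163 in limma), past the p threshold and under the fold threshold.

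*Idh2* overlapped between the genotypes, with log2 signals of 5.44, 5.74, 5.90 and 5.70 in WT and 5.68, 5.80, 6.21 and 5.68 in KO. Its log2 fold change was 0.15 (95% interval -0.18 to 0.48, adjusted p = 0.717 in limma), and that of its second probe was 0.23. In both probes WT mouse 1 was the lowest of all mice and KO mouse 3 the highest.

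Within pairs of enzymes that work at the same step or on the same substrates, the ratio of both signals in an array shows unequal change without any scaling between arrays. The pairs were chosen after the values were seen, so their ratios are given as a description without a p. The *G6pdx* to *H6pd* ratio was higher in KO by 1.49 on the log2 scale, and set to a WT mean of 0 it lay between -0.25 and 0.10 in WT and between 1.19 and 2.21 in KO. The *Rpia* to *Rpe* ratio was higher in KO by 0.77, from -0.18 to 0.26 in WT and from 0.59 to 0.97 in KO. The *Tkt* to *Taldo1* ratio was higher by 0.33, from -0.06 to 0.04 in WT and from 0.20 to 0.48 in KO. The *Idh1* to *Idh2* ratio differed by 0.10 and overlapped between the genotypes.

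**Figure D3:**
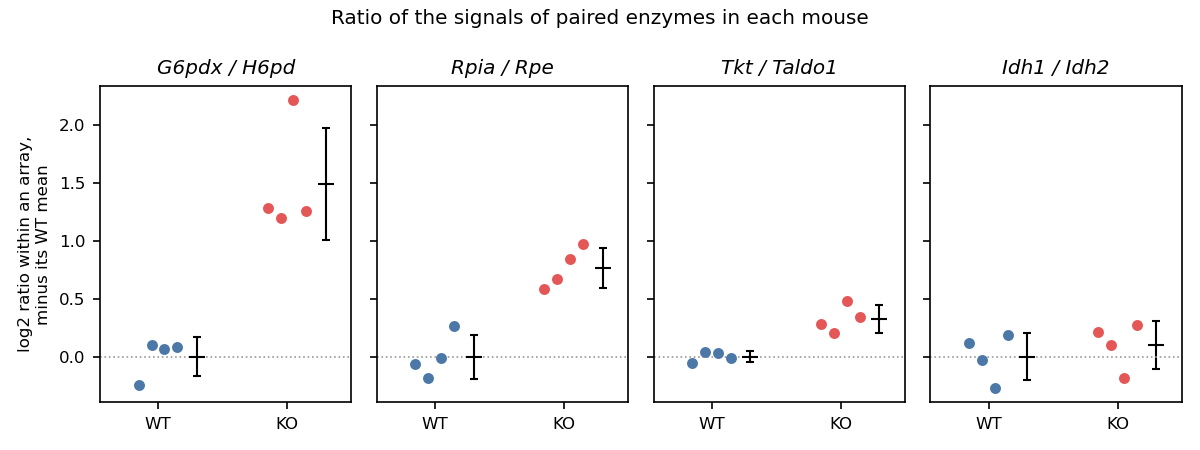
Log2 ratio of the signals of 2 enzymes within each array, minus the WT mean of that ratio, for 4 pairs. Dots are mice and bars are mean ± SD (n = 4). The first 3 pairs separate WT (blue) from KO (red), by 1.49, 0.77 and 0.33 on the log2 scale, and *Idh1* over *Idh2* does not.

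Mice of 1 genotype differed together in several members. KO mouse 3 had the highest signal of its genotype in 6 of 10 members (*G6pdx*, *Pgd*, *Rpe*, *Tkt*, *Idh1* and *Idh2*) and lay on average 0.19 above the KO mean on the log2 scale. WT mouse 4 had the highest signal of WT in 7 of 10 members, and WT mouse 1 the lowest in 5. How often these mice were highest or lowest over all genes was not counted, so these counts are not particular to the members. When each array was left out in turn, *Rpia* was called in 8 of 8 fits, while *G6pdx* and *Pgd* were each called in 4. *G6pdx* kept a log2 fold change of 0.82 to 1.17 and lost its call through the adjusted p alone, without WT mouse 1, 2 or 3 or KO mouse 2 (largest adjusted p = 0.243 in limma). *Pgd* ranged from 0.52 to 0.67 and was lost without WT mouse 1 or 3 or KO mouse 1 or 3. With no filter on dim probes both missed the p threshold (adjusted p = 0.256 for *G6pdx* and 0.255 for *Pgd* in limma), and an unpaired t test kept *Pgd* and *Rpia* but not *G6pdx*. *H6pd* stayed between -0.48 and -0.37 and *Tkt* between 0.24 and 0.34. *H6pd* missed the p threshold without WT mouse 3 or KO mouse 1 (adjusted p = 0.221 and 0.203 in limma). With an array left out, *Tkt* passed it only without WT mouse 4 (adjusted p = 0.195 in limma, at most 0.345 in the other fits). With no filter on dim probes *H6pd* and *Tkt* missed it too (adjusted p = 0.265 and 0.433 in limma). *Tkt* also missed the p threshold when arrays were scaled to their median (log2 fold change 0.26, adjusted p = 0.266 in limma).

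**Figure D4:**
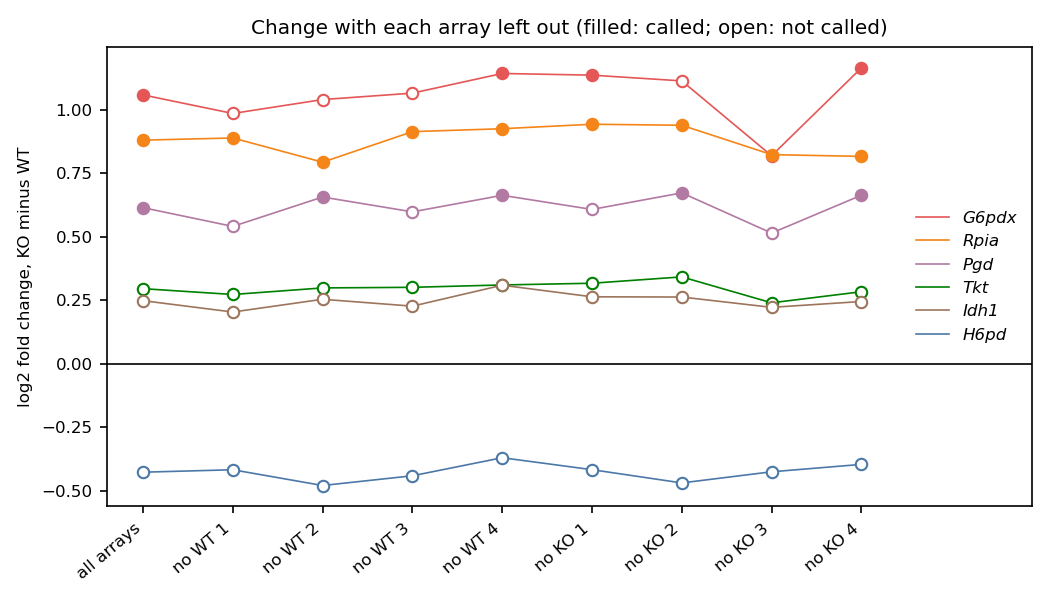
Log2 fold change, KO minus WT, of 6 members with all arrays and with each array left out, named on the horizontal axis. Filled points were called and open points were not, and lines join the values of 1 gene. *Rpia* is filled in all fits, *G6pdx* and *Pgd* in some, and no gene changes direction.

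The lists around the members held 83 other genes that were tested, of which 4 were called higher and 0 lower, beside 1.01% and 0.754% of all genes. Their median log2 fold change was 0.09. The 4 called genes were *Me1*, *Acly*, *Fasn* and *Srebf1*. At an unadjusted limma p under 0.05, 19 of the 83 lay higher and 0 lower, beside 5.70% and 8.25% of all genes. The lists were chosen with earlier results of these data known, so these counts describe the lists and do not test enrichment.

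Among 7 other NADPH-forming enzymes and NAD kinases, *Me1*, the cytosolic malic enzyme, was called higher. Its log2 signals were 5.14, 4.59, 4.21 and 4.43 in WT and 5.55, 5.26, 5.81 and 5.16 in KO, which left WT mouse 1 just below the KO mice. The log2 fold change was 0.85 (95% interval 0.35 to 1.35, adjusted p = 0.155 in limma), and the call held only without WT mouse 1 or KO mouse 4 when an array was left out, in 2 of 8 fits (0.72 to 1.03). The folate enzyme *Mthfd1*, the smallest of the list, had a log2 fold change of -0.02. *Me3* and *Aldh1l2* were too dim to test, and no probe matched *Nnt*.

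In the citrate list 1 of 9 genes was called higher, *Acly*, which cleaves citrate to cytosolic acetyl-CoA (log2 fold change 1.03, 95% interval 0.86 to 1.20, adjusted p = 0.00206 in limma), and *Idh3g*, a subunit of the NAD-dependent isocitrate dehydrogenase, had -0.02. Of 14 lipid synthesis enzymes that consume NADPH, 1 was called higher, *Fasn*, the fatty acid synthase (1.69, 95% interval 1.40 to 1.97, adjusted p = 0.00206 in limma), and the list had a median of 0.31 with *Hsd17b12* at its lower end (-0.13). Both *Acly* and *Fasn* were called under all alternatives that gave them a log2 fold change.

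Among 11 relatives of the pathway and enzymes of ribose use, 0 were called, from *Tigar*, a phosphatase that favors the pathway (-0.27), to *Shpk*, a sedoheptulose kinase (0.19). Among 11 genes of glucose 6-phosphate supply and use, 0 were called, from *Hk2* (-0.31) to *G6pc*, the catalytic subunit of glucose-6-phosphatase (0.54, 95% interval -0.60 to 1.69). Among 14 reductases that use NADPH, 0 were called, from *Cbr3* (-0.26) to *Cbr1* (0.34), both carbonyl reductases. These lists had medians of -0.01, 0.09 and 0.05.

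Of 8 transcription regulators, *Srebf1*, which drives fatty acid synthesis genes, was called higher (log2 fold change 0.77, 95% interval 0.30 to 1.24, adjusted p = 0.168 in limma), a call lost whenever any array was left out, while *Srebf2*, its relative in cholesterol synthesis, had -0.20. Of 9 genes of the fasting response 0 were called, and *Igfbp1* (0.76, 95% interval -0.61 to 2.12) and *Txnip* (-0.24) marked the ends of that list.

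**Figure D5:**
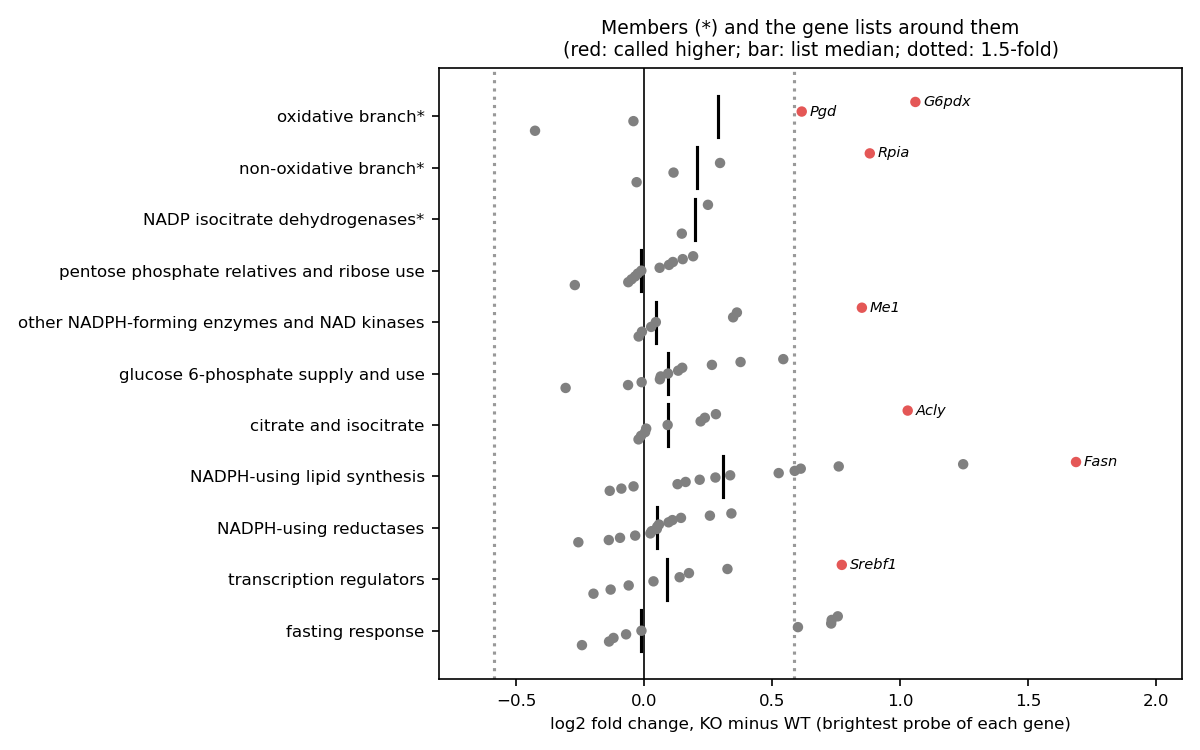
Log2 fold change, KO minus WT, at the brightest probe of each gene tested, grouped by list, with the 3 groups of members on top (asterisk). Dots are genes, red dots were called higher and carry their names, black bars are list medians and dotted lines stand at a 1.5-fold change. Outside the members, *Fasn*, *Acly*, *Me1* and *Srebf1* are red.

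The patterns over the 8 mice most like those of the members with the largest changes were sought among 14057 genes, by the mean absolute difference of log2 signals after each gene's own mean was subtracted. The genotype difference is part of such a pattern, so similar fold changes in the genes found follow from the search itself. *Mcm3* (0.149), *Mcm6* (0.149) and *Pmvk* (0.171) were closest to *G6pdx*, and all 3 were called higher, with log2 fold changes of 0.85, 0.89 and 0.85. The call of *Mcm3* was lost without WT mouse 1, 2 or 3 or KO mouse 2, that of *Mcm6* (adjusted p = 0.1996 in limma) without any mouse but WT mouse 4, and that of *Pmvk* was kept in all 8 fits. *Mcm3* and *Mcm6* encode subunits of the replicative helicase and *Pmvk* a kinase of the mevalonate pathway. *Olfr700* (0.120), *Olfr424* (0.123) and *Acss3* (0.138) were closest to *Rpia*. Their probes were dim, with WT means from -3.47 to -3.03, and with normexp background correction their log2 fold changes of 0.66, 0.73 and 1.00 became 0.25, 0.31 and 0.35 and were not called. The call of *Olfr700* was also lost without WT mouse 2 or 3 or KO mouse 3.

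Markers of the liver's cell types were read beside these results, as sums of the linear signal over each list, in units of the 75th percentile of the array. All 6 hepatocyte markers were well above background in every mouse, and their sum was 4484 to 5015 in WT and 4522 to 4748 in KO. The Kupffer cell sum overlapped as well (90.0 to 147 in WT, 76.1 to 127 in KO), though 1 of its 8 markers, *Marco*, was called lower (log2 fold change -1.22, adjusted p = 0.0983 in limma), a call lost without WT mouse 3 or KO mouse 2. The lymphocyte sum (5.62 to 6.31 in WT, 4.88 to 5.60 in KO) and the pancreatic acinar sum (43.2 to 54.0 in WT, 27.2 to 42.1 in KO) were lower in every KO mouse, with *Cd79a*, *Cpa1* and *Pnlip* not above background on any array. None of the 5 lymphocyte markers tested was separated on its own. Of the 4 acinar markers tested, *Cela1* alone was separated (log2 fold change -0.54, adjusted p = 0.292 in limma), while *Ctrb1* (-0.15), *Amy2a5* (-0.09) and *Cel* (0.45) overlapped. The sums of the neutrophil, stellate cell, endothelial, cholangiocyte, erythroid and adipocyte lists overlapped, and the adipocyte markers *Adipoq*, *Plin1* and *Retn* and the neutrophil markers *Ngp* and *Ltf* were not above background on any array. The part of these cells in the differences of *G6pdx*, *Rpia*, *Pgd* and *H6pd* was not tested.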

How the data were processed

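Liver RNA of 4 WT and 4 *Agpat3* KO mice was measured on one-color arrays. Per array, the authors deposited the output of Feature Extraction 10.7.1.1, whose processed signal is a background-corrected fluorescence intensity, and a table of log2 values. The deposited log2 values were checked against log2 of that intensity minus the 75th percentile of the array, and 100% of 56605 probes lay within 0.05 on every array (median absolute difference 0.00289 to 0.00848). Arrays have no sequencing depth, and their number limits the precision. The 75th percentile was 261 to 309 intensity units, the median background 27 to 32, the members lay between 68.8 and 31442 units, no spot was saturated and 86 to 150 outlier spots per array were left out.

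Control spots were removed, log2 of the processed signal was averaged over the spots of a probe, the 75th percentile of each array was subtracted, and 29068 of 56605 probes, well above background in all 4 mice of at least 1 genotype, were kept. Symbols came through transcript accessions from a RefSeq table of GRCm38.p6 (32994 probes named). The array design uses another build, so positions are given for promoter windows only. The genotype difference was estimated by limma 3.58.1 (lmFit, then eBayes; R 4.3.3), without a pseudocount, two-sided, with Benjamini-Hochberg adjustment over all kept probes. A two-sided exact permutation test of the difference in means was added for each member. The test was also tried on simulated data, and no result above rests on that trial. Figures were drawn with matplotlib.

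The members, the gene lists and the tests were chosen with earlier results of these data known. Named were all member probes, called genes of the lists, the ends of each list, and the 3 genes most like each of the 2 members with the largest change. *Hsd11b1*, the *Marco* result and the enzyme pairs were chosen after their values were seen. Samples were not taken as pairs. Same-numbered mice had deviations correlated at 0.33, -0.11, 0.10 and 0.32. WT mice 1, 3 and 4 correlated best with the KO mouse of the same number, and WT mouse 2 did not. Alternatives were normexp (offset 50, on the median spot signal, since the files hold no mean signal), quantile and median scaling, the deposited values, other filters on dim probes, a replicate block, the trend and robust options of eBayes, leaving out each array, the mean of a gene's probes, other thresholds and an unpaired t test.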

Additional observations from a re-analysis of the deposited data

Results flagged for a closer look

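The lowest and highest mouse of each genotype were compared with the other mice of that genotype by Dixon's ratio at its 95% critical value in 82 sets of 4 mice, over the genes named above. Chance alone exceeds it in about 1 of 20 such sets, and 2 sets exceeded it. *G6pdx* in KO mouse 3 had a log2 signal of 2.36, where the other KO mice had 1.32 to 1.48. *G6pc* in the same mouse had 5.69, where the other KO mice had 7.30 to 7.52. Without that mouse the log2 fold change of *G6pdx* was 0.82 and it was still called.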

How the results depend on the processing

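The number of members called higher was 3, and 1 (*Rpia*) without a filter on dim probes or at adjusted p under 0.05. The unpaired t test kept 2, *Pgd* and *Rpia*. With an array left out it ranged from 1 to 3. Members called lower were 0, and 1 (*H6pd*) without a minimum fold. Pathway genes called higher were 4, and 2 without a filter, at adjusted p under 0.05 or by the t test, and 10 at an unadjusted p under 0.2, with a range of 2 to 6 when an array was left out. Of these, *Acly* and *Fasn* were called in every fit that gave them a value. With the replicate number as a replicate block, 3 members and 4 pathway genes were called higher, and of the genes named *Mcm6* alone lost its call. Every member kept its direction under all 17 alternatives that gave it a log2 fold change. *Mthfd1* changed sign with quantile normalization (0.00031), and with an array left out it ranged from -0.076 to 0.040, and *Idh3g* from -0.068 to 0.035. The causes were not tested. Without a filter more probes enter the adjustment and also the eBayes step that sets the p-values, and the part of each was not separated. No scaling moved the median of all genes by more than 0.04. *Rpia* lay nearest to background among the called members, and background correction moved it from 0.88 to 0.65.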

Other observations

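Some genes of feeding state varied between mice within both genotypes. *G6pc* had log2 signals of 6.94, 5.30, 6.44 and 7.02 in WT and 7.30, 7.37, 5.69 and 7.52 in KO, and *Txnip* had 4.55, 3.64, 4.51 and 4.87 in WT and 4.08, 4.34, 3.70 and 4.48 in KO. *Angptl4*, chosen after its values were seen, had 6.27, 4.94, 6.41 and 6.77 in WT and 6.00, 6.43, 4.97 and 6.51 in KO. WT mouse 2 and KO mouse 3 were the lowest of their genotype in these 3 genes. Some other genes of the fasting list had another order, with *Ppargc1a* highest in KO mouse 3 (1.86), and *Pck1* and *Igfbp1* lowest in WT mouse 1 (7.24 and 4.57) and KO mouse 1 (7.49 and 5.80). *G6pdx* was 0.53 in WT mouse 2, within the WT range, and 2.36 in KO mouse 3.

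Enzymes of cholesterol synthesis that use NADPH, also chosen after their values were seen, were lowest in WT mouse 1. *Sqle* had log2 signals of 2.14, 4.22, 3.33 and 4.31 in WT and 4.75, 4.80, 5.21 and 4.22 in KO, and *Dhcr7* had 0.81, 1.80, 1.38 and 2.04 in WT and 2.12, 2.05, 2.34 and 1.95 in KO. Their log2 fold changes of 1.25 and 0.61 came with adjusted p of 0.304 and 0.335 in limma. *G6pdx*, *Pgd*, *Tkt*, *Idh1* and *Idh2* were lowest in the same WT mouse.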
